A study of Macaca fascicularis with 28 samples.

Results

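The chemokine and chemokine receptor genes of the macaque tongue were followed across taste buds and the lingual epithelium (LE) beside them. A gene was taken as a member when a probe set of the array carried its symbol, as a CC, CXC, C or CX3C ligand or as a receptor of one of these classes, with IL8 counted as the CXC ligand it is. The choice used names. It gave 48 genes, 34 ligands and 14 receptors, of the 14868 gene symbols with a probe set of their own. Part of the names came from the study's table, whose probe sets were selected as higher in taste buds than LE in these data. CXCL14 and CXCL2 are members only by that table. It alone also names the brightest probe sets of IL8 and CCL23. A pair of further probe sets could not be given to a single member, since their names are CCL14 and CCL15 together and CXCL3 and CXCL1 together. These are described but not counted as genes.

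Chemokines are small secreted proteins that steer leukocytes along a gradient through G protein-coupled receptors. CXC ligands with a glutamate-leucine-arginine (ELR) motif, such as IL8, act mainly on neutrophils, inflammatory CC ligands on monocytes, T cells and dendritic cells, and homeostatic ligands place cells in lymphoid and epithelial tissue. Atypical receptors bind chemokines without G protein signalling and remove them, and surface epithelia of the mouth make several family members themselves.

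The study took cells by laser capture from tongue sections of cynomolgus macaques (Macaca fascicularis) and measured amplified RNA on the Affymetrix Rhesus Macaque Genome Array. In the first set of arrays, animals 1 to 6 (4 females and 2 males, 2.6 to 4.5 years old) gave fungiform (FG) taste buds and LE adjacent to FG papillae, 6 samples each. Animals 1, 3, 4 and 5 also gave circumvallate (CV) taste buds and LE adjacent to CV papillae, 4 samples each. In the second set, animals 7 to 10 (3 females and 1 male, 3 years old) gave the top and the bottom portion of CV taste buds, 4 samples each. The labels name no treatment and no engineered allele for any group. Each sample pools the captures of several sections of 1 animal and can hold any cell that lay in the captured area. The array was designed for a related species. In such bulk material, fewer cells of a type and less RNA per cell cannot be told apart.

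Levels are normalized intensities in arbitrary units on a linear scale, and the level of one probe set cannot be set against that of another. In a sample, 37.3% to 40.8% of probe sets were at or above 25 units, which is the study's minimum. The tissue labels held in the taste cell markers. All 7 were tested, and 6 were higher in CV and 7 in FG taste buds than in adjacent LE. Their summed level was 11500 to 16010 units in whole taste buds of both sites and 143.6 to 302.7 in LE. The 7 markers of differentiated keratinocytes were all lower in taste buds of both sites, with sums of 177.5 to 15550 units against 51670 to 65750. How precise any value is depends on the small number of arrays.

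Changes are differences of mean log2 intensity with their standard error, from limma with the animal as a block, and p-values are adjusted by Benjamini-Hochberg over all probe sets tested. A change is said to have passed at an adjusted p of at most 0.05. A probe set was tested if it reached 25 units in at least 4 samples of its array set. By this rule 22 of the 48 members were tested in the first set and 15 in the second. A member could pass it through a single group, so that the members tested are not a sample of the family. Folds compare geometric means with values under 25 units raised to 25, and are estimates. "At least" stands before a fold if raising changed the lower group and if, in addition, arithmetic means of the measured values gave a ratio as large or larger.

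**Figure D1:**
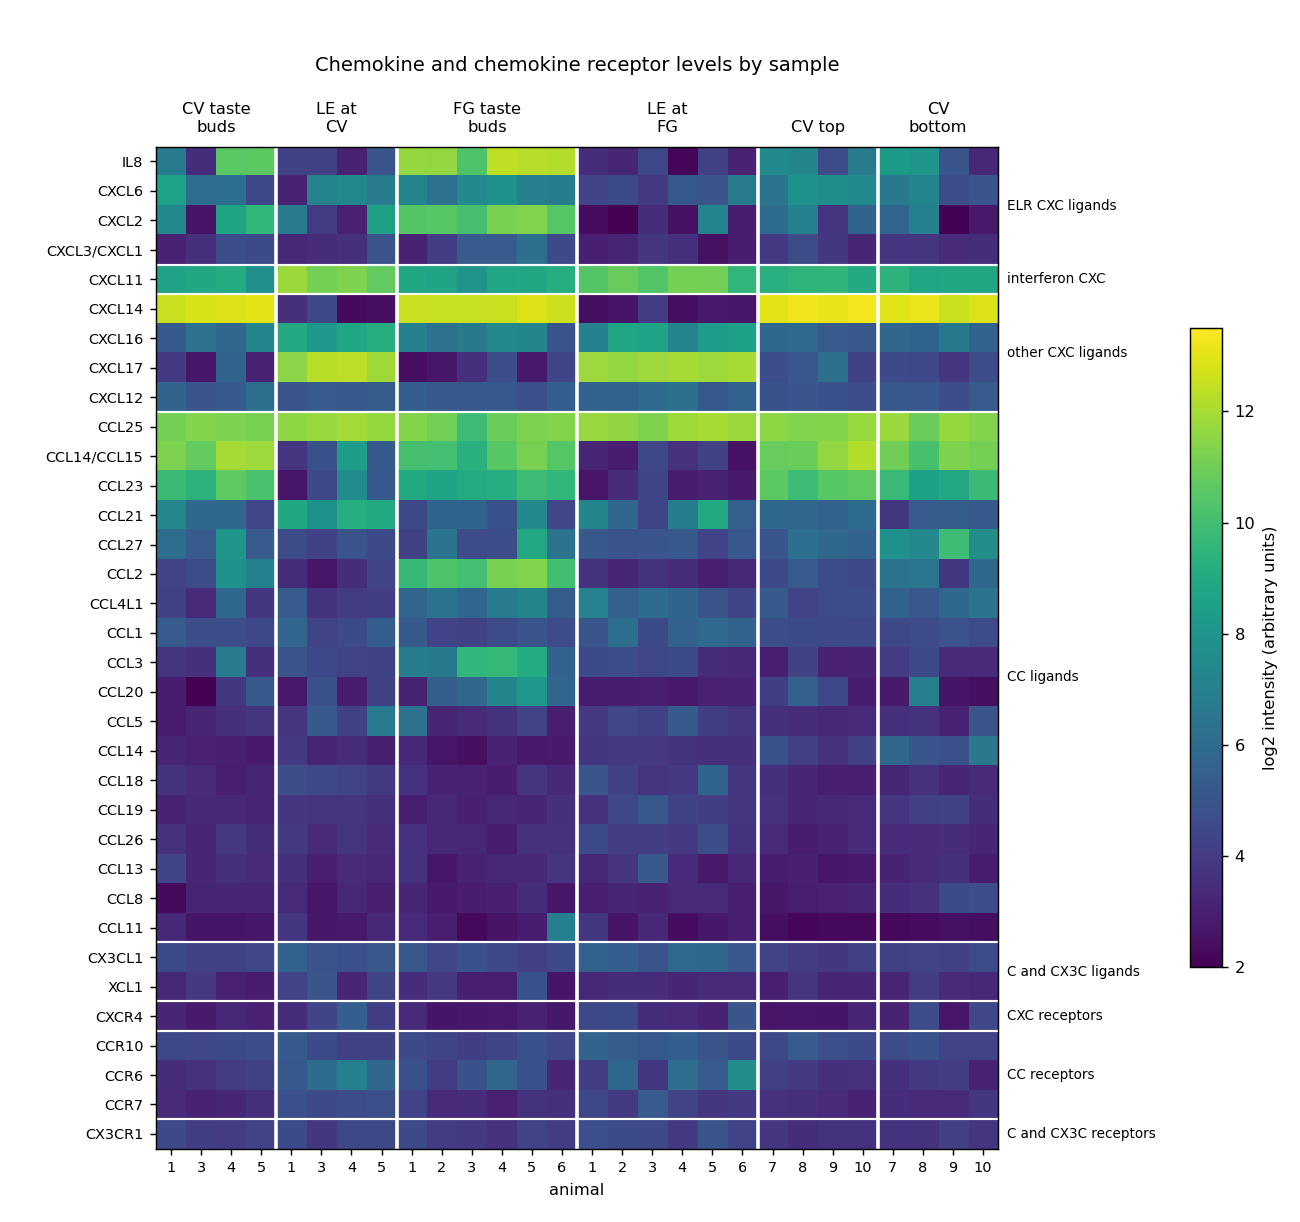
Log2 intensity of each member that reached 25 units in at least 1 sample, and of both shared probe sets (rows, by family), in the 28 samples (columns, by group and animal). CXCL14 is bright in all taste bud samples and dark in all LE samples, CXCL17 the reverse, and the row of IL8 is uneven among CV taste buds.

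CXCL14, a homeostatic chemokine of epithelia, had the largest rise among the members at both sites. CV taste buds measured 6087, 7130, 7515 and 8256 units in animals 1, 3, 4 and 5, and the LE beside them 11.6, 23.0, 4.88 and 5.46. FG taste buds ranged from 5888 to 7571 with a median of 6104, and their LE from 5.30 to 15.9 with a median of 6.46. The groups did not overlap, and no LE sample reached 25 units. The CXCL14 change was 9.61 ± 0.40 at CV (adjusted p = 1.3e-09, at least 288-fold) and 9.77 ± 0.32 at FG (adjusted p = 9.38e-11, at least 251-fold).

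CXCL14 varied little among taste bud samples, the highest being 1.36 times the lowest in CV and 1.29 times in FG. The top portion of CV taste buds held 8461 to 9949 units of it and the bottom portion 6089 to 9126, and the change between the portions was 0.30 ± 0.25 (adjusted p = 0.552 by limma). This probe set has a different name in each table. The table of the study calls it CXCL14, and the annotation of the array calls it TPM2, a tropomyosin. Of the other probe sets that the annotation names TPM2, a bright one likewise lay above LE at both sites, with 456.7 to 1986 units in CV and 311.6 to 1397 in FG taste buds against at most 17.4 in LE. A dimmer one did so too (92.5 to 432.6 units in CV against at most 23.6, and 42.04 to 169.6 in FG against at most 39.6), and the rest overlapped between tissues at FG.

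The ELR ligands IL8, CXCL2 and CXCL6 were higher in FG taste buds than in LE, IL8 and CXCL2 without overlap, and IL8 alone was higher in CV taste buds by the brightest probe sets. IL8, the main neutrophil attractant of this class, measured 1289 to 5444 units in FG taste buds (median 4005) and 4.64 to 22.2 in LE (median 10.5). In CV taste buds it was 110.3, 11.3, 1484 and 1550 units in animals 1, 3, 4 and 5, against 18.4, 19.4, 8.94 and 32.4 in their LE. All 6 animals had more IL8 in FG taste buds than in LE, without overlap, whereas animal 3 had less in CV taste buds than in LE. The IL8 change was 8.29 ± 0.87 at FG (adjusted p = 6.53e-06, at least 138-fold) and 3.69 ± 1.07 at CV (adjusted p = 0.0157, at least 10.6-fold). Without animal 4 or animal 5 the CV change was 2.46 (adjusted p = 0.117) and 3.06 (adjusted p = 0.105). A dimmer probe set of IL8 gave 1.5 ± 0.34 at FG (adjusted p = 0.00329) and -0.42 ± 0.41 at CV (adjusted p = 0.453).

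CXCL2, a further neutrophil attractant, measured 1113 to 2526 units in FG taste buds (median 1443) and 3.73 to 143.5 in LE (median 6.5). The 143.5 units were those of animal 5, and every other LE sample at FG lay at or under 11.4. In CV taste buds CXCL2 was 162.7, 6.28, 424.4 and 795.9 units in animals 1, 3, 4 and 5, and in their LE 111.5, 15.8, 8.39 and 367.4. The animals with high CV taste buds were thus in part those with high LE. CXCL2 rose by 7.27 ± 0.86 at FG (adjusted p = 2.06e-05, at least 48.5-fold). At CV its change of 1.5 ± 1.06 did not pass (adjusted p = 0.288).

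CXCL6 acts on the same neutrophil receptors. By its brightest probe set it measured 78.8 to 230.8 units in FG taste buds (median 133) and 15.5 to 103.7 in LE (median 28.5), a change of 2.13 ± 0.76 (adjusted p = 0.037, 3.89-fold) with overlap, lost without animal 2, 3, 4 or 5 (1.86 to 2.22, adjusted p = 0.0621 to 0.121). At CV it was 406.8, 68.1, 73.8 and 22.4 units in taste buds of animals 1, 3, 4 and 5, and 8.52, 142.7, 164.0 and 102.3 in LE. Only animal 1 had more in CV taste buds, and the CV change of 0.29 ± 0.93 did not pass (adjusted p = 0.832). The 3 probe sets of CXCL6 disagreed. The next in brightness fell at CV (-2.09 ± 0.63, adjusted p = 0.0194) while the dimmest, which the table of the study names, rose (3.92 ± 0.63, adjusted p = 0.00031). At FG the dimmest rose by 5.42 ± 0.51 (adjusted p = 2.4e-06), and the other had a value of -1.33 ± 0.51 (adjusted p = 0.0509).

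In the names used here, which hold part of the study's table, no probe set was named CXCL3 or CXCL1 alone, both of them growth-related ELR ligands. The shared probe set CXCL3/CXCL1 was dim, with 8.45 to 74.8 units in FG taste buds (median 31.3) and 5.73 to 14.2 in LE (median 8.67). It rose by 1.58 ± 0.40 at FG (adjusted p = 0.0069), in 6 of 6 animals. In CV taste buds it was 8.96, 11.8, 27.2 and 23.7 units in animals 1, 3, 4 and 5, which overlapped with their LE (9.84, 10.9, 11.9 and 31.2).

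**Figure D2:**
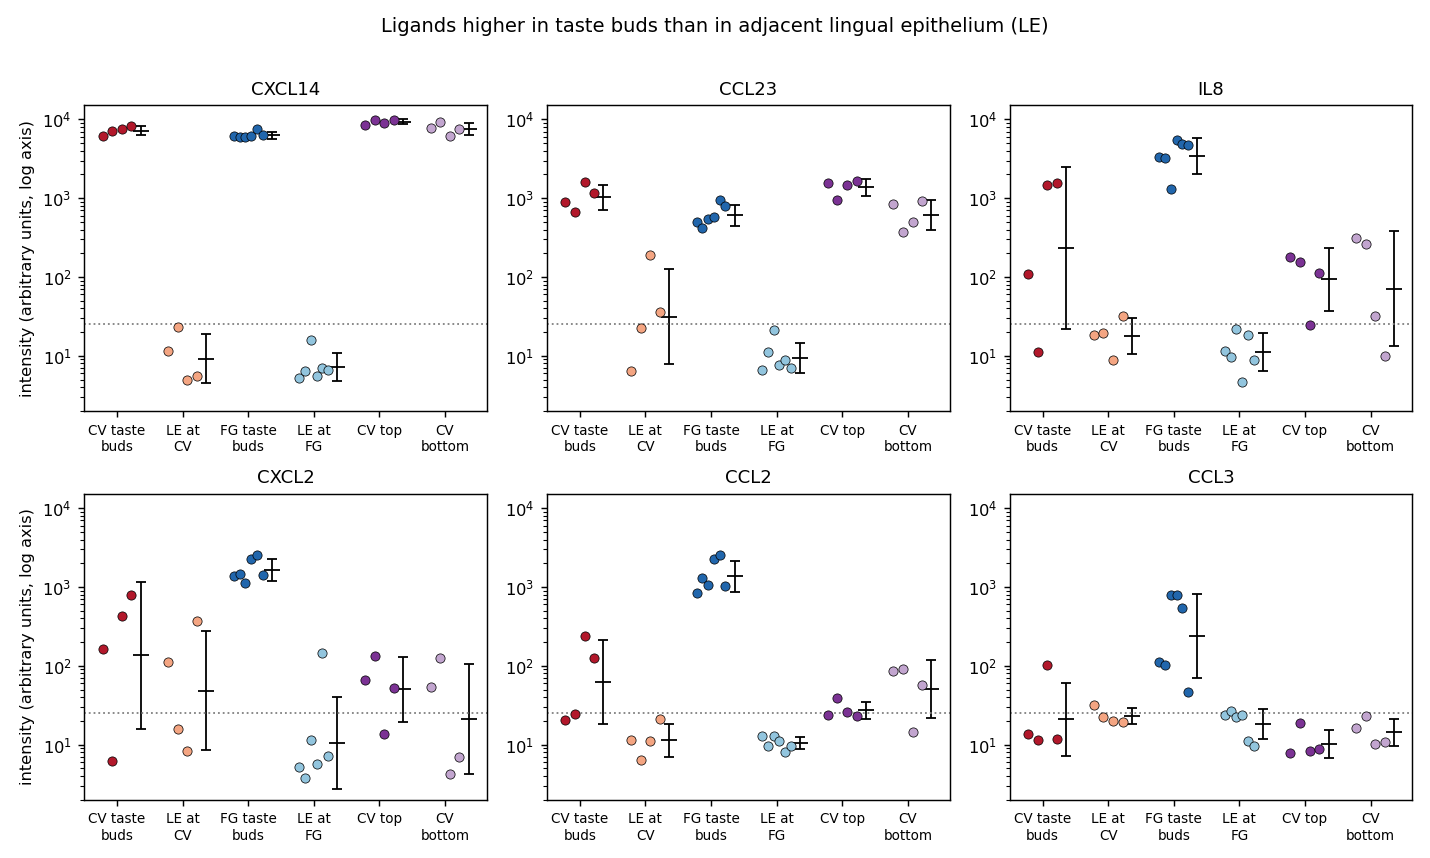
Intensity (log axis, arbitrary units) of 6 ligands in every sample of the 6 groups, animals in rising order from left to right, with the geometric mean and 1 SD on the log2 scale as black bars and 25 units as a dotted line. CXCL14 and CCL23 are high in all taste bud groups, while IL8, CXCL2, CCL2 and CCL3 are highest in FG taste buds and spread widely among CV taste buds.

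Among CC ligands, CCL23 was higher in taste buds at both sites and CCL2 most in FG taste buds. CCL23, which acts through CCR1 on monocytes and resting lymphocytes, measured 903.0, 664.8, 1595 and 1157 units in CV taste buds of animals 1, 3, 4 and 5, and 6.51, 22.2, 188 and 35.8 in LE. It measured 420.4 to 951.1 in FG taste buds (median 561) and 6.58 to 21.3 in LE (median 8.18). Neither site overlapped with its LE. The CCL23 change was 5.03 ± 0.66 at CV (adjusted p = 5.63e-05, 22.6-fold) and 6.00 ± 0.54 at FG (adjusted p = 1.43e-06, at least 24.3-fold).

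The LE of animal 4 stood apart for CCL23 among LE at CV, and it did so for the shared probe set CCL14/CCL15 as well (336.0 units against 13.6, 29.4 and 38.8). The 7 taste cell markers summed to 155.3 to 218.2 units over the LE samples at CV, and the part of taste cells in these values was not tested. Across taste buds CCL14/CCL15, named after relatives of CCL23, was 1712 to 3915 units in CV and 621.8 to 2274 in FG. It rose by 5.85 ± 0.65 at CV (adjusted p = 1.3e-05) and 6.76 ± 0.53 at FG (adjusted p = 3.51e-07). A probe set of CCL14 alone stayed at or under 15.2 units in all 20 samples of that set, and the second probe set of CCL23 at or under 11.96 units in all 28 samples.

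CCL2, the main monocyte attractant, measured 831.4 to 2533 units in FG taste buds (median 1176) and 8.03 to 12.9 in LE (median 10.4). In CV taste buds it was 20.5, 24.4, 239.5 and 126.7 units in animals 1, 3, 4 and 5, and in their LE 11.3, 6.43, 11.3 and 20.9. Every animal had more CCL2 in taste buds than in LE at either site, and 2 of the 4 CV samples were under 25 units. The CCL2 change was 7.03 ± 0.45 at FG (adjusted p = 5e-08, at least 54.9-fold) and 2.45 ± 0.55 at CV (adjusted p = 0.00353, at least 2.64-fold).

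CCL3, an inflammatory ligand of CCR1, measured 47.2 to 802.3 units in FG taste buds (median 327) and 9.70 to 26.8 in LE (median 22.9), with no overlap. It was 13.8, 11.6, 103.8 and 11.96 units in CV taste buds of animals 1, 3, 4 and 5, and 32.1, 22.5, 20.01 and 19.6 in LE. CCL3 rose at FG by 3.72 ± 0.59 (adjusted p = 0.000271, at least 9.44-fold), and its CV change of -0.13 ± 0.72 did not pass (adjusted p = 0.906). This is the brightest of 4 probe sets of CCL3, and the next showed an FG change of -0.01 ± 0.29 (adjusted p = 0.974). The other 2 were too dim to be tested, with means of 27.6 and 24.1 units in FG taste buds against 11.4 and 3.83 in LE, and were higher in taste buds of 6 and 5 of 6 animals.

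CCL20, which draws cells with the receptor CCR6, measured 8.85 to 281.8 units in FG taste buds (median 54.6) and 7.16 to 8.96 in LE (median 7.66). Animal 1 alone had an FG sample in the range of LE. It was 7.24, 3.88, 14.6 and 35.8 units in CV taste buds of animals 1, 3, 4 and 5, and 6.89, 28.9, 7.33 and 18.8 in LE. CCL20 rose by 2.96 ± 0.58 at FG (adjusted p = 0.00138, at least 2.89-fold). At CV its change was -0.23 ± 0.71 (adjusted p = 0.831).

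In all, 8 members were higher and 8 lower in FG taste buds than in LE, beside 21.1% and 20.2% of all probe sets tested. At CV, 4 were higher and 6 lower, beside 17.3% and 18% of all probe sets tested. These shares are of 22 tested members each, 36.4% higher and 36.4% lower at FG, and 18.2% higher and 27.3% lower at CV. At CV the higher share was near that of all probe sets and the lower share above it, and at FG both were above it. The higher shares are no test of the family. CXCL14, CCL23 and IL8, and CXCL2 at FG, were read by probe sets named only in the study's table of taste bud probe sets. The members' shares also rest on the brightest probe set of each gene, and the other shares on all probe sets. The median change of the tested members was -0.17 at CV and -0.40 at FG, and that of all probe sets tested was -0.08 and 0.05. All 3 ELR ligands were higher at FG, and IL8 alone at CV.

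**Figure D3:**
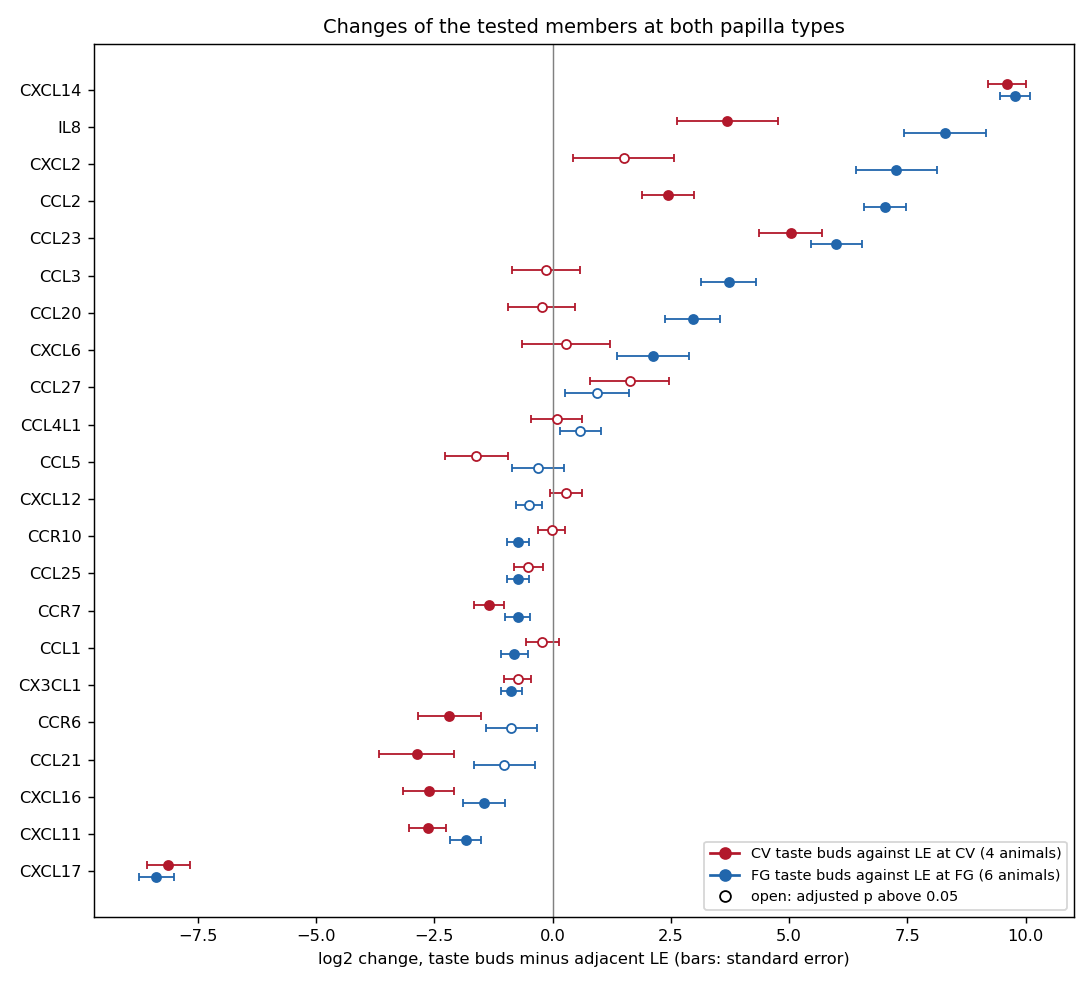
Log2 change between taste buds and adjacent LE (x axis, with its standard error) of the 22 tested members (y axis) in CV (red, 4 animals) and FG (blue, 6 animals), filled where the adjusted p is at most 0.05. IL8, CXCL2, CCL2, CCL3 and CCL20 lie further right in FG than in CV, and CXCL14 and CXCL17 lie close together at both sites.

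CXCL17, a mucosal chemokine, had the largest fall at both sites. LE at CV measured 2927, 4959, 5300 and 3693 units in animals 1, 3, 4 and 5, and the taste buds there 15.7, 6.58, 51.0 and 8.92. LE at FG ranged from 3226 to 4067 (median 3627) and FG taste buds from 5.62 to 26.8 (median 9.53). One taste bud sample at each site reached 25 units. The CXCL17 change was -8.12 ± 0.46 at CV (adjusted p = 2.12e-08, at least 137-fold lower) and -8.38 ± 0.37 at FG (adjusted p = 1.25e-09, at least 145-fold lower). It moved with the differentiated keratinocyte markers, all 7 of which were lower in taste buds, and their part in the result was not tested.

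CXCL16 is a transmembrane ligand of CXCR6. It was 38.0, 80.4, 56.4 and 142.7 units in CV taste buds of animals 1, 3, 4 and 5, and 491.1, 282.1, 441.9 and 580.4 in LE, with no overlap. FG taste buds ranged from 32.0 to 172 (median 117) and their LE from 129.7 to 433.4 (median 344). Animals 1 and 4 had slightly more CXCL16 in FG taste buds than in LE, and the other 4 had less. CXCL16 fell by 2.62 ± 0.54 at CV (adjusted p = 0.00195) and by 1.45 ± 0.44 at FG (adjusted p = 0.0177). The FG call was lost without animal 2 (-1.24, adjusted p = 0.0615), animal 3 (-1.34, adjusted p = 0.0637) or animal 6 (-1.03, adjusted p = 0.0611).

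CXCL11, an interferon-induced ligand of CXCR3, was 392.8, 471.3, 533.6 and 221.5 units in CV taste buds of animals 1, 3, 4 and 5, and 3505, 2172, 2507 and 1727 in LE. FG taste buds ranged from 248.2 to 576.8 (median 443) and LE from 771.3 to 2172 (median 1600). The groups did not overlap at either site, and CXCL11 fell by 2.64 ± 0.39 at CV (adjusted p = 0.000154, 6.23-fold) and by 1.84 ± 0.32 at FG (adjusted p = 0.000524, 3.57-fold). The second probe set of CXCL11 was at or under 10.6 units in all 28 samples. CXCL9 and CXCL10, induced by the same signal, reached no more than 10.99 and 11.6 units, and CXCR3 17.1. Which of the CXCL11 probe sets reads the transcript was not tested.

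CCL21 guides cells with CCR7 into lymphatics. It was 158.0, 59.3, 59.2 and 21.7 units in CV taste buds of animals 1, 3, 4 and 5, and 479.1, 234.3, 577.5 and 525.2 in LE, without overlap. In FG taste buds it was 21.9 to 168 units (median 41.0) and in LE 21.0 to 501.9 (median 85.8), which overlap. CCL21 fell by 2.87 ± 0.79 at CV (adjusted p = 0.0121, 7.04-fold), and at FG its change was -1.02 ± 0.65 (adjusted p = 0.221). The CV call was lost without animal 4 (-2.73, adjusted p = 0.0681), and by the second probe set, which measured 13.6 to 28.8 units at CV (-0.34, adjusted p = 0.56).

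The receptors CCR6 and CCR7, found on dendritic cells and lymphocytes, were low in taste buds. CCR6 was 10.9, 12.6, 15.9 and 18.6 units in CV taste buds of animals 1, 3, 4 and 5, and 36.0, 67.8, 123 and 57.1 in LE. It fell by 2.18 ± 0.67 at CV (adjusted p = 0.0207). Leaving out animal 3 (-2.10, adjusted p = 0.0607), animal 4 (-1.92, adjusted p = 0.119) or animal 5 (-2.37, adjusted p = 0.0637) ended this call. In FG taste buds CCR6 was 9.52 to 55.4 units and in LE 14.7 to 204, a change of -0.87 ± 0.54 (adjusted p = 0.217).

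CCR7 was 10.7, 8.98, 9.28 and 12.1 units in CV taste buds of animals 1, 3, 4 and 5, and 27.6, 23.2, 25.2 and 27.8 in LE. In FG taste buds it was 8.36 to 19.9 units (median 11.4) and in LE 14.1 to 39.6 (median 18.0). CCR7 fell by 1.34 ± 0.32 at CV (adjusted p = 0.00562) and by 0.74 ± 0.27 at FG (adjusted p = 0.0379). These levels lie around the minimum, and with values under 25 units raised to 25 neither change passed (-0.08 and -0.11). The FG call was also lost without animal 2 (-0.77, adjusted p = 0.0642).

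**Figure D4:**
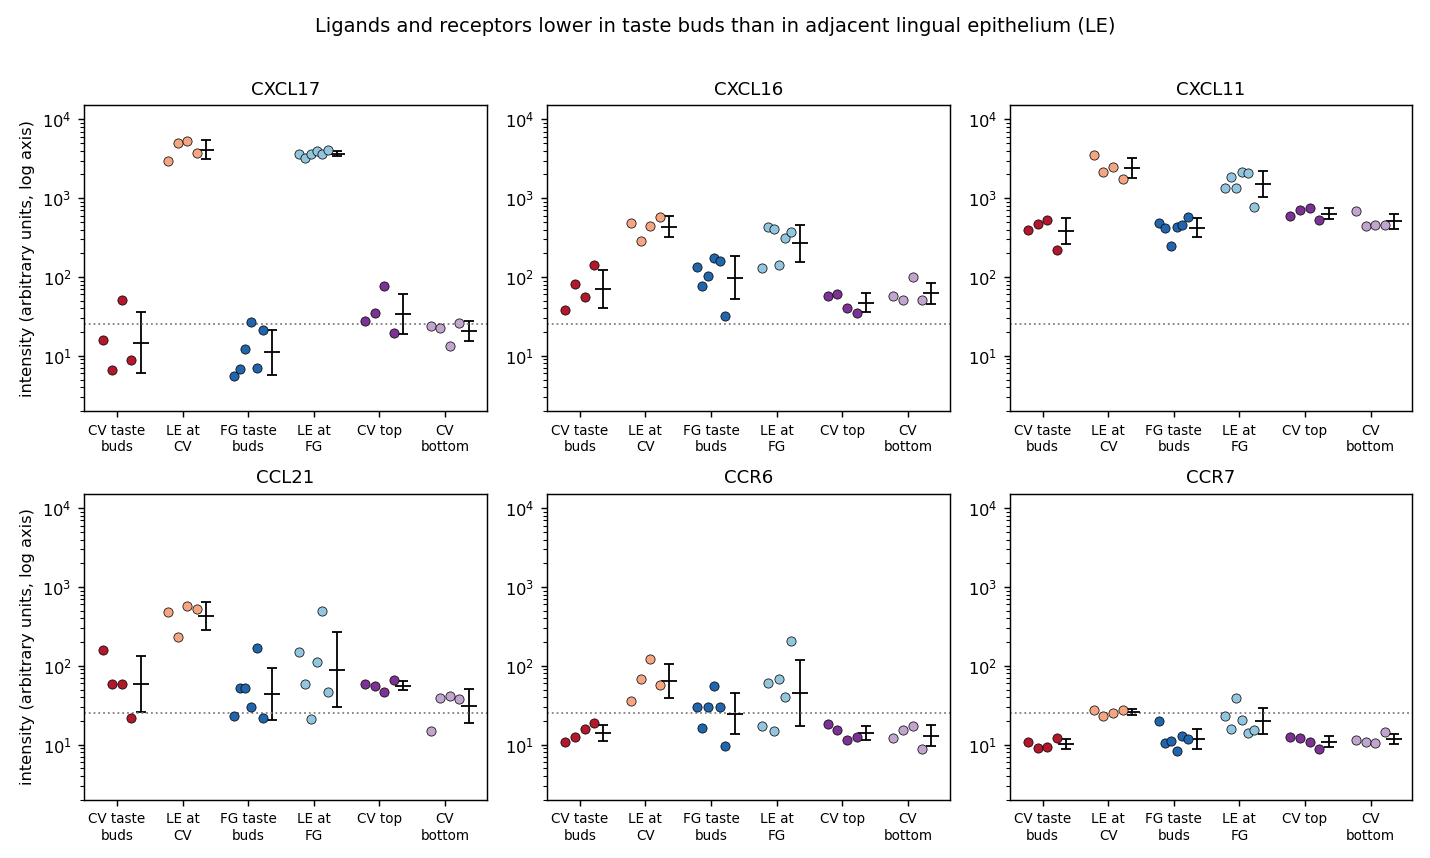
Intensity (log axis, arbitrary units) of 4 ligands and 2 receptors in every sample of the 6 groups, with symbols as in the plot of the ligands that were higher. CXCL17 and CXCL11 do not overlap between taste buds and LE at either site, and CXCL16, CCL21, CCR6 and CCR7 overlap at FG only.

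At CV, CCR6 and CCR7 fell beside the Langerhans cell markers CD1A and CD207, and at FG CCR7 passed and CCR6 did not. CD1A was lower in CV (-4.04 ± 0.73, adjusted p = 0.000754) and FG taste buds (-3.26 ± 0.60, adjusted p = 0.000795), and CD207 likewise (-1.55 ± 0.47 and -1.66 ± 0.39, adjusted p = 0.0208 and 0.00419). CD1C, the remaining marker, was too dim to be tested. Its means were 19.7 units in CV taste buds against 17.8 in LE, and 10.6 against 19.98 at FG. The 3 markers of this list summed to 20.8 to 68.7 units in whole taste buds and 64.1 to 546.0 in LE. Of 9 leukocyte markers with a probe set, 6 were tested. At CV, 4 of them (CD8A, CSF1R, CD68 and TYROBP) were lower in taste buds, and at FG CD68 alone, beside 18% and 20.2% of all probe sets tested. PTPRC and CD14 passed at neither site. At FG the means of PTPRC (239 units against 94.4), CD14 (68.5 against 50.45) and TYROBP (890.8 against 678.3) were above those in LE. Those of CD8A, CSF1R and CD68 were below. The median change of the 6 was -2.70 at CV and 0.26 at FG. The list summed to 153.2 to 1027 units in CV taste buds against 2725 to 3512 in LE, and to 519.6 to 2410 in FG taste buds against 1070 to 3098. The part of these cells in the chemokine and receptor values was not tested.

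Smaller falls at FG were those of CX3CL1 (fractalkine, a membrane-bound ligand), CCL1, CCL25 and CCR10, with changes from -0.87 to -0.73. CX3CL1 measured 18.2 to 35.2 units in FG taste buds (median 22.9) and 31.9 to 61.2 in LE (median 45.0), and fell by 0.87 ± 0.23 (adjusted p = 0.00936). At CV it was 23.6, 18.7, 19.5 and 21.9 units in taste buds of animals 1, 3, 4 and 5, and 47.4, 31.1, 28.2 and 35.1 in LE, without overlap. That CV change of CX3CL1, -0.74 ± 0.29, did not pass (adjusted p = 0.0599). By their brightest probe sets CCL25, CCL1 and CCR10 passed at FG only. At CV, CCL25 still did not overlap, with 2167 to 2665 units in taste buds and 2972 to 3828 in LE. CCL1 and CCR10 overlapped there. The FG call of CX3CL1 was lost without animal 4 (-0.75, adjusted p = 0.0556) or 5 (-0.70, adjusted p = 0.0569), that of CCL1 without any of animals 2 to 6, that of CCL25 without animal 3, 4 or 5, and that of CCR10 without animal 1, 2, 3 or 4.

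CV and FG taste buds were compared within the 4 animals that gave both. Among CV taste buds CCL2 and CCL3 were below their FG levels, and no member was above. These are 2 of 22 tested members beside 0.493% of all probe sets that were lower and 0.378% that were higher. CCL2 was 831.4, 1060, 2244 and 2533 units in FG taste buds of animals 1, 3, 4 and 5, so that every CV sample, 239.5 units at most, lay below every FG sample. Its change was -4.55 ± 0.53 (adjusted p = 0.000654, 20.8-fold lower).

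CCL3 changed by -3.99 ± 0.69 between CV and FG taste buds (adjusted p = 0.0138, at least 6.69-fold lower), in 4 of 4 animals. The CV value of animal 4, 103.8 units, lay within the FG range. The call was lost without animal 1 (-4.21, adjusted p = 0.0511), 3 (-3.39, adjusted p = 0.123) or 5 (-3.62, adjusted p = 0.131), and by the second probe set (-0.33, adjusted p = 0.805).

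A further 4 ligands had less signal at CV than at FG in the taste buds of all 4 animals and did not pass. IL8 had a change of -3.93 ± 1.02 (adjusted p = 0.101), CXCL2 of -3.87 ± 1.01 (adjusted p = 0.103), CCL20 of -2.53 ± 0.68 (adjusted p = 0.118) and CCL4L1, an inflammatory ligand, of -2.08 ± 0.52 (adjusted p = 0.0842). CXCL14 (0.15 ± 0.38, adjusted p = 0.94), CCL23 (0.71 ± 0.63, adjusted p = 0.757) and CXCL17 (0.44 ± 0.44, adjusted p = 0.792) had changes under 1. By limma, 6 members were lower and 0 higher at an unadjusted p under 0.05. The share of all probe sets at an unadjusted p was not counted, here or below. Such counts are therefore no result about the family.

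The uneven CV samples were the same for several of these ligands. Animals 4 and 5 held the high CV values of IL8 (1484 and 1550 units), CXCL2 (424.4 and 795.9) and CCL2 (239.5 and 126.7). Animal 3 held the lowest value of IL8 (11.3), CXCL2 (6.28) and CCL20 (3.88). Other ligands differed: CCL3 was high in animal 4 alone (103.8), and CCL2 was lowest in animal 1 (20.5). CXCL6 was highest in animal 1 (406.8) and lowest in animal 5 (22.4). For IL8 the highest CV sample was 138 times the lowest and for CXCL2 127 times, against 4.22 and 2.27 times among FG taste buds. CCL23 differed by only 2.40 times among the same CV samples.

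The difference between sites was also tested as an interaction, the CV change over LE minus the FG change over LE. It was -4.58 ± 0.71 for CCL2 (adjusted p = 0.00881), 1 of 22 members beside 0.6% of all probe sets that were lower. Without animal 3 or 5 it was -4.53 (adjusted p = 0.0614) and -4.38 (adjusted p = 0.0796). CXCL2 (-5.78 ± 1.36, adjusted p = 0.0631), CCL3 (-3.85 ± 0.93, adjusted p = 0.0684), CCL20 (-3.18 ± 0.92, adjusted p = 0.118) and IL8 (-4.60 ± 1.38, adjusted p = 0.129) did not pass. No member had a higher interaction, against 0.271% of all probe sets. At an unadjusted p under 0.05 limma gave 0 higher and 5 lower, with no share of all probe sets counted.

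No member passed between LE at CV and LE at FG, beside 0.97% of all probe sets that were higher and 0.294% that were lower at CV. At an unadjusted p under 0.05 by limma there were 2 higher (CCL21 and CCL23) and 2 lower (CCL4L1 and CCR10). No share of all probe sets was counted at that threshold. The paired t-test of the study's methods gave 1 in each direction before adjustment. CCL21 was 234.3 to 577.5 units in LE at CV and 21.0 to 501.9 in LE at FG (2.00 ± 0.76, adjusted p = 0.2). For CCL2, CXCL14, CCL25, CXCL17 and CCL3 the change was under 0.35 in size.

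**Figure D5:**
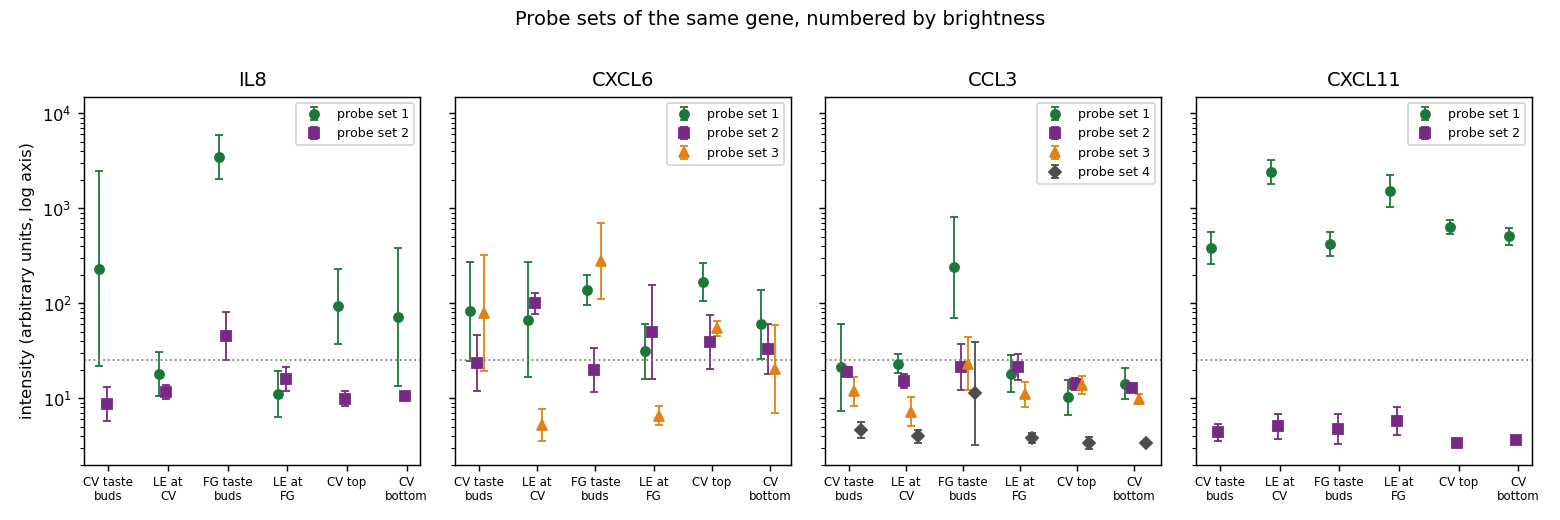
Geometric mean and 1 SD on the log2 scale (log axis, arbitrary units) of each probe set of IL8, CXCL6, CCL3 and CXCL11 in the 6 groups, numbered by mean brightness, with 25 units dotted. Probe sets of 1 gene differ in level and, for IL8, CXCL6 and CCL3, in the sign of a change between taste buds and LE.

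In the second array set, which used other animals, CCL27 was lower in the top than in the bottom portion of CV taste buds. It is a skin ligand of CCR10 that attracts memory T cells. It measured 32.5, 73.0, 58.3 and 48.1 units in the top of animals 7, 8, 9 and 10, and 224.5, 169.8, 962.1 and 203.1 in the bottom. The portions did not overlap, and CCL27 fell by 2.53 ± 0.47 (adjusted p = 0.0476, 5.78-fold). It was 1 of 15 tested members beside 1.46% of all probe sets that were lower and 1.68% that were higher. The call did not hold without any one animal (-2.97 to -2.03, adjusted p = 0.0853 to 0.168).

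Fibroblast markers moved the same way, with COL1A2, DCN and LUM of 4 tested lower in the top and summed levels of 580.8 to 1710 units there against 4131 to 5593 in the bottom. Their part in the CCL27 result was not tested. In whole CV taste buds CCL27 was 72.2, 39.8, 271.7 and 39.5 units in animals 1, 3, 4 and 5, and 25.1, 18.4, 31.3 and 23.5 in LE. In FG taste buds it was 18.9 to 489.7 units, with animal 5 the highest. Neither change passed (1.63 ± 0.83, adjusted p = 0.141, and 0.94 ± 0.68, adjusted p = 0.282).

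CCL23 was higher in the top in all 4 animals, with 1560, 939.6, 1452 and 1658 units against 850.8, 367.9, 494.4 and 915.8 in animals 7, 8, 9 and 10. The portions did not overlap, yet the change of 1.16 ± 0.26 did not pass (adjusted p = 0.0709). CCL14, by a probe set of its own, was 30.2, 18.2, 12.5 and 18.8 units in the top and 57.4, 32.7, 28.4 and 96.3 in the bottom (-1.33 ± 0.34, adjusted p = 0.0914).

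IL8 varied among the animals of the second set more than between portions. It was 177.8, 155.5, 24.3 and 111.1 units in the top of animals 7, 8, 9 and 10, and 310.6, 261.7, 31.8 and 9.96 in the bottom (0.38 ± 0.75, adjusted p = 0.82). CXCL2 was 65.9, 133.5, 13.8 and 52.4 units in the top and 54.1, 124, 4.25 and 6.91 in the bottom (1.25 ± 0.51, adjusted p = 0.236). CCL2 was 23.5, 39.6, 25.6 and 23.2 units in the top and 85.8, 90.5, 14.6 and 57.4 in the bottom (-0.89 ± 0.46, adjusted p = 0.341). Animals 7 and 8 held the higher bottom values of all 3 ligands. No member was higher in the top by adjusted p. Limma gave 3 higher and 3 lower at an unadjusted p under 0.05, again with no share of all probe sets counted. The portions and the whole taste buds lie in different array sets, so that their levels are given side by side without a test.

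The other members lay low. By the brightest probe set of each of the 48 genes, 16 reached 25 units in no sample, 9 in 1 to 3 samples and 23 in at least 4, and 4 did so in all 28. The 16 were the ligands CCL16, CCL17, CCL24, CCL28, CXCL9, CXCL10 and CXCL13 and the receptors CCR1, CCR2, CCR3, CCR4, CCR8, CCRL2, CXCR3, CXCR6 and XCR1. A dimmer probe set of CXCL13, a B cell attractant, reached 46.8 units in the FG taste buds of animal 4 and in no other sample as much as 25. Only 3 of 14 receptors (CCR6, CCR7 and CCR10) were tested. None was higher in taste buds, beside 17.3% of all probe sets tested at CV and 21.1% at FG. CCR7 reached 25 units in LE alone, and so was tested through the tissue where it was high. The receptors tested are thus no sample of the 14, and their result is no finding about them. CXCR4, the receptor of CXCL12, was 6.21 to 10.2 units in whole taste buds and 8.52 to 43.9 in LE.

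CXCL12 is a homeostatic ligand that retains cells in tissue. By the brightest of its 3 probe sets it was above 25 units in all 28 samples, from 26.75 in the top portion to 76.6 in LE at FG, and passed in no comparison. The next probe set was 20.2 to 29.4 units in FG taste buds and 30.2 to 67.5 in LE, without overlap. It was 15.9 to 22.4 units in the top portion and 25.2 to 29.9 in the bottom, and overlapped with LE at CV. CCL25, a ligand of CCR9, was 936.9 to 4025 units in all 28 samples by its brightest probe set. It was lower in FG taste buds (-0.73 ± 0.24, adjusted p = 0.028) in 6 of 6 animals. Of its 3 other probe sets, 2 were lower there too (-1.28 ± 0.21 and -2.03 ± 0.39) and the dimmest was under 25 units throughout. In CV taste buds the same 2 measured 1463 to 1605 and 173.9 to 261.4 units, against 2160 to 3038 and 313.3 to 585.9 in LE. CCL11, an eosinophil attractant, stood out in 1 sample, the FG taste buds of animal 6 (126.6 units against at most 14.4 elsewhere). CCL5, a T cell attractant, did so in the LE of animal 5 at CV (105.3) and the FG taste buds of animal 1 (78.2).

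Chemokine genes often lie side by side in clusters, and several neighbours here were too dim to be tested. In the RefSeq gene table of the macaque assembly T2T-MFA8v1.1, 44 of the 48 members were found by symbol. CXCL6 and IL8, both higher at FG by their brightest probe sets, lie side by side with no protein-coding gene between them. CCL21, CCL19 and CCL27 follow each other likewise, and CCL21 was lower in CV taste buds, CCL27 lower in the top portion, and CCL19 at 25 units or more in a single sample of 28. CXCL11, CXCL10 and CXCL9 form a run in which CXCL11 alone reached 25 units. CCL2 heads a run with CCL11, CCL8, CCL13 and CCL1 (CCL7 lies after CCL2). Of these CCL2 was higher in taste buds and CCL1 lower at FG, and CCL11, CCL8 and CCL13 were too dim to be tested.

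Among atypical receptors and chemokine partners, 6 of 10 with a probe set were tested. ACKR3, a scavenging receptor for CXCL12 and CXCL11, was 384.0, 284.4, 161.4 and 313.4 units in CV taste buds of animals 1, 3, 4 and 5, against 9.62, 5.35, 7.32 and 19.2 in LE. In FG taste buds it was 297.7 to 1137 units and in LE 5.29 to 183.5. It rose by 4.89 ± 0.89 at CV (adjusted p = 0.000808) and 5.23 ± 0.73 at FG (adjusted p = 8.63e-05), without overlap at either site. Genes of the marker and pathway lists were named in the same way as the members. A probe set named by the study's table had been selected as higher in taste buds, so that its rise is no separate test. The syndecans, cell surface proteoglycans that hold chemokines, differed: SDC4 rose (1.46 ± 0.45 and 1.58 ± 0.37) and SDC1 fell (-2.08 ± 0.24 and -1.44 ± 0.19) at CV and FG. ACKR1, CKLF and PF4 passed at neither site.

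The interleukin 1 and NF-kappaB genes, which drive many inflammatory chemokines, were given by a list of 20, of which 17 had a probe set and 11 were tested. At FG, 1 was higher (IL1B) and 2 were lower (IL1A and IL1RN), beside 21.1% and 20.2% of all probe sets tested. Neither FG count was a larger share of the 11. At CV, 0 were higher by limma, also at an unadjusted p under 0.05, and 4 were lower (IL1A, IL1RN, the inhibitor TNFAIP3 and NFKBIZ). Of all probe sets tested at CV, 17.3% were higher and 18% lower. The median change of the list was 0.27 at FG and -1.37 at CV. At CV the change of IL1B was -2.37 ± 1.41 (adjusted p = 0.206). IL1B, a secreted cytokine, was 64.6 to 6128 units in FG taste buds and 6.89 to 470.3 in LE (5.49 ± 1.15, adjusted p = 0.00205). In CV taste buds it was 8.60, 8.35, 480.1 and 319.9 units in animals 1, 3, 4 and 5, so that animals 4 and 5 were high and animals 1 and 3 low, as for CCL2. Its own change between CV and FG taste buds, -5.74 ± 1.35, did not pass (adjusted p = 0.0656). TNF stayed at or under 20.9 units in all samples.

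IL1RN, the receptor antagonist, was lower in taste buds of CV than of FG papillae (-3.38 ± 0.61, adjusted p = 0.0167). Of the interferon genes, 12 of 13 with a probe set were tested. STAT2 was lower at CV (-1.29 ± 0.47), IRF7 and IDO1 were higher at FG (1.80 ± 0.59 and 1.68 ± 0.58), and ISG15 was lower at FG (-2.27 ± 0.70). At FG 2 were thus higher and 1 lower, beside 21.1% and 20.2% of all probe sets tested. At CV 0 were higher and 1 lower, beside 17.3% and 18%. Each count is a smaller share of the 12 than that of all probe sets. The list as a whole had a median change of -0.17 at CV and 0.56 at FG.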

How the data were processed

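The values are 1 intensity per probe set and array, as deposited by the authors, who applied GC-RMA in GeneSpring GX over all 28 arrays (versions not given in the sources used here). Here they were taken as log2. Probe sets at 25 units or more in at least 4 samples of an array set were tested with limma 3.58.1 in R 4.3.3, with tissue and site as groups, the animal as a block and Benjamini-Hochberg adjustment of the p-values over all 26176 probe sets tested in the first and 21167 in the second set. The block follows the labels, which give the animal of each sample. The mean correlation of the deviations of same-animal samples was 0.053 to 0.123 over the 5 pairs of groups, against -0.039 to -0.011 between animals. As the deviations are from group means, the values between animals follow in large part from the others and are no separate check.

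A probe set was named from the study's table (the first 1997 entries; the rest was not used here), otherwise from GEO's annotation, which left 25890 of 52024 without a name. IL8 is the older symbol of CXCL8. Each gene is represented by its brightest probe set by mean log2 intensity, never compared with another gene's. Of the 48 members, 16 had more than 1 probe set. Named in the text were up to 12 called members per comparison with the largest change, and the chemokines the study names. The members and gene lists were chosen with earlier results of these data known. The estimates of change were checked on simulated data with changes planted in brighter probe sets. That check set no limit on false or missed calls. Samples of a group come from separate animals. Alternatives were other filters, no block or a random block, values raised to 25 units, median centring and other probe sets. Further ones were leaving out each animal, all LE samples as 1 group, and the paired t-test of the methods.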

Additional observations from a re-analysis of the deposited data

Results flagged for a closer look

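Of 81 combinations of a named member and a group, 12 held 1 sample that stood apart from the others by Dixon's test, which chance gives in about 1 in 20 groups. In the bottom portion, animal 8 was high for CCL20 (127.7 units, next 7.22), animal 9 for CCL27 (962.1, next 224.5) and CXCL16 (98.91, next 56.6), and animal 7 for CXCL11 (693.5, next 463). Animal 7 was low there for CCL21 (14.79 units, next 37.7). In LE at CV, animal 5 was high for CXCL3/CXCL1 (31.21 units, next 11.9) and animal 1 low for CXCL6 (8.518, next 102.3). In LE at FG, animal 5 was high for CXCL2 (143.5 units, next 11.4) and low for CCL27 (19.67, next 30.5). Among taste buds, animal 4 was high for CCL3 at CV (103.8 units, next 13.8), animal 5 for CXCL14 at FG (7571, next 6240) and animal 3 low for IL8 at FG (1289, next 3209).

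The taste bud change of CCL2 over LE differed between the sites, with an interaction of -4.58 on the log2 scale (limma, adjusted p = 0.00881).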

How the results depend on the processing

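The 30 called changes of single members kept direction and call in 362 of 438 alternatives, lost the call in 73 and reversed in 3. Alternatives in which the probe set was too dim to be tested, as for the second probe sets of CXCL11 and CCL23, are not among the 438. The reversals came with the second brightest probe set (IL8 at CV -0.42, CXCL6 at FG -1.33 and CCL3 at FG -0.01). That probe set gave 2 members higher at CV against 4 and 5 higher at FG against 8. The 8 members lower at FG became 16 with no filter on dim probe sets and 5 at a minimum of 50 units. With values raised to 25 units, 4 in place of 2 were lower in CV than FG taste buds and 2 in place of 1 had a lower interaction. For top against bottom, 0 in place of 1 were lower with no filter, as more probe sets were tested.

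By the methods' t-test before adjustment, 2 were higher at CV, 5 were lower in CV than FG taste buds, 1 was higher and 1 lower between LE samples, and for top against bottom 1 was higher and 0 lower. After Benjamini-Hochberg it gave 1 higher and 1 lower at CV, 5 higher and 3 lower at FG, and 0 lower both for CV against FG taste buds and for top against bottom. Where not stated otherwise, the cause was not tested.

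Leaving out each animal gave 3 to 4 members higher and 3 to 6 lower at CV (3 without animal 4), 7 to 8 higher and 3 to 6 lower at FG (3 without animal 3 or 4), 1 to 2 lower for CV against FG taste buds (1 without animal 1, 3 or 5), 0 to 1 for the interaction (0 without animal 3 or 5) and 0 to 0 for top against bottom. Without the replicate block by animal, 4 members were higher and 7 lower at CV and 8 and 8 at FG. With the animal as a random block there were 3 lower for CV against FG taste buds. With all LE samples as 1 group, the calls of CCL21 at CV and of CCL1, CCR10 and CXCL6 at FG were lost. The study's own probe set for each gene, an alternative chosen after seeing the data, gave 5 higher at CV.

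Over the probe sets tested, the mean of the array medians differed between groups by 0.219 at CV, 0.441 at FG, -0.056 between taste buds, 0.166 between LE samples and 0.133 between portions on the log2 scale. With each array centred on its median, the share of higher among all calls went from 51.1% to 30.6% at FG, 76.7% to 52.3% between LE samples, 31.1% to 48.5% for the interaction and 53.4% to 41.1% between portions. CXCL6 at FG was then 1.69 (adjusted p = 0.0763). Members near 25 units, most receptors among them, are limited by the background.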
